A study of Mus musculus with 2 samples.

Results

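Metallothioneins and the genes that move zinc across membranes were followed in mouse liver before and during regrowth. The 10 genes were taken from a fixed list of names: the metallothionein genes Mt1 and Mt2, the zinc-sensing transcription factor gene Mtf1, the exporter genes Slc30a1, Slc30a5 and Slc30a10, and the importer genes Slc39a4, Slc39a8, Slc39a10 and Slc39a14. Every probe set whose only gene symbol in the array annotation was 1 of these names was used, which gave 22 probe sets. All 10 genes had a signal above the floor on both arrays, among 12634 genes analysed in all. The samples were whole livers of BALB/c nude mice, athymic animals with few mature T cells, and both groups shared this strain. The first group was labelled day 0 control of partial hepatectomy, and the second day 3 after the surgical removal of 70% of the liver. Each day was represented by 1 Affymetrix array, and the labels do not give the age of the mice or say whether animals were pooled. A single array per day leaves the spread between animals unmeasured, so the days were not tested against each other, and day, surgery and animal cannot be told apart.

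Metallothioneins are small, cysteine-rich proteins that bind zinc and copper in the cytosol. Their genes are switched on when free zinc rises, because zinc lets MTF1 bind short DNA stretches called metal response elements, and in liver also by glucocorticoids and interleukin 6. Proteins of the Slc30 family carry zinc out of the cytosol, across the plasma membrane or into organelles, and proteins of the Slc39 family carry it in.

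The promoters of Mt1 and Mt2 are shown because these genes had the highest ratios of the 10 and because the metal response element is the known binding site of MTF1. The sequences are from RefSeq, build GRCm38.p6, on the strand of each gene, and capitals mark matches to the element. The window before the Mt1 start is chr8:94178839-94179088 (plus strand), and the 30 bases from the start on are chr8:94179089-94179118. The Mt2 stretches are chr8:94172368-94172617 and chr8:94172618-94172647 (plus strand).
Mt1, 250 bases before the start: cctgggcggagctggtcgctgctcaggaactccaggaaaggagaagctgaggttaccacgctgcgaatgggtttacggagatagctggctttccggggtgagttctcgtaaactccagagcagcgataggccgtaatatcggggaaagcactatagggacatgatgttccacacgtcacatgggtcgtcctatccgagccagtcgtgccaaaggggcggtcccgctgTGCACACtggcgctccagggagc
Mt1, 30 bases from the start: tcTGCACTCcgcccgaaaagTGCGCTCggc
Mt2, 250 bases before the start: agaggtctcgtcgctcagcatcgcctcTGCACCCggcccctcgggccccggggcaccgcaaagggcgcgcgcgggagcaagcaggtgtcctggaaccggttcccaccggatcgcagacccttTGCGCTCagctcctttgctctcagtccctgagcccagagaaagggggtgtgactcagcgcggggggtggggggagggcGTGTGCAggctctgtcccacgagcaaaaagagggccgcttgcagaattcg
Mt2, 30 bases from the start: ggtcGTGCGCAggcccaggggcgtgtgctg

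The element was searched as TGCACNC or TGCGCNC on both strands, over 250 bases before and 50 bases from each annotated start. The Mt1 window held 3 matches, at −23, 3 and 21 relative to the annotated RefSeq start. Whether transcription in these livers began at that start was not measured, and bases beyond the window were not searched. The Mt2 window held 4, at −223, −128, −50 and 5. Of all 32851 RefSeq windows of this length, 25.7% held at least 1 match, 7.11% at least 2, 1.97% at least 3 and 0.517% at least 4. The windows of Mt1 and Mt2 were 60.67% and 67.67% G and C, against a median of 52.67% over all windows. Among the other genes Slc30a1 had 2 matches, at −43 and 31, and Slc30a10 had 3, at −233, −232 and −73, where the first 2 overlap on opposite strands. Slc30a5 had 1 match and Slc39a8 had 1, at the second of its 2 annotated starts. Mtf1 and both annotated starts of Slc39a10 had 0 matches in this window. RefSeq windows were at hand for 8 of the 10 genes. Slc39a4 and Slc39a14 had no entry.

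A further search covered the STAT motif TTCNNNGAA and the antioxidant response element TGACNNNGC, which 8.3% and 12.4% of all windows held. A STAT match was present in 1 window of the 10 genes, that of the upstream one of the 2 annotated starts of Slc39a10, at −82. Antioxidant matches lay at −79 in Mt2, −82 in Slc30a1, 7 in Slc30a5 and −35 at the first start of Slc39a8. A match is only a run of letters, and neither binding nor use of a start was measured here. The stretches of 100 bases before the starts of Slc30a1 (chr1:191906681-191906780, plus strand, metal response element in capitals) and Slc39a10 (chr1:46925777-46925876, minus strand, STAT motif in capitals) are shown for comparison with the metallothioneins.
Slc30a1: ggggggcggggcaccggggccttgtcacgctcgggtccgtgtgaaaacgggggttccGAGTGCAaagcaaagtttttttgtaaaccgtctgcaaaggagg
Slc39a10: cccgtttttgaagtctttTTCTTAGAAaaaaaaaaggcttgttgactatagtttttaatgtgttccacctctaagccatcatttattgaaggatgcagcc

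**Figure D1:**
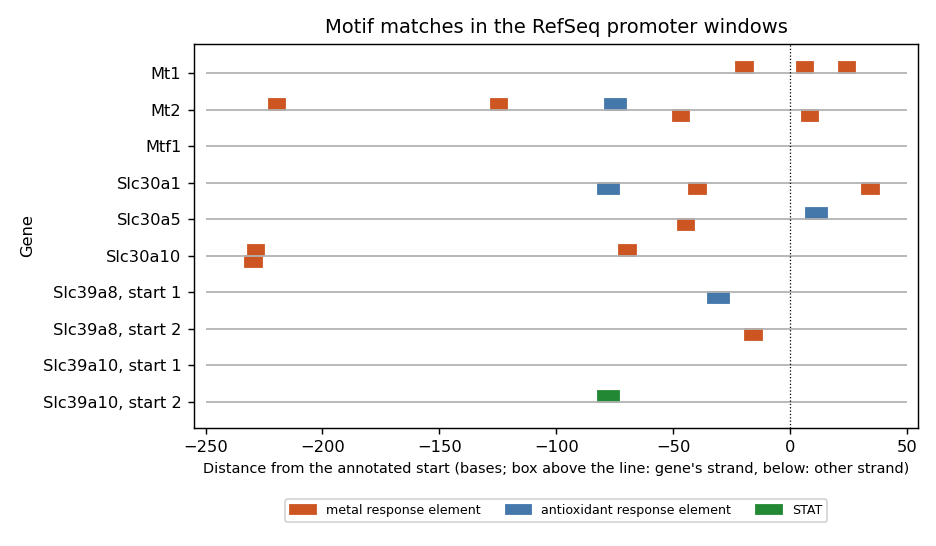
Positions of motif matches from 250 bases before to 50 bases after each annotated start, with distance from the start in bases on the x axis and 1 line per RefSeq window on the y axis. Boxes above a line are matches on the gene's strand and boxes below it on the other strand. Mt2 has 4 matches to the metal response element and Mt1 has 3, while Mtf1 and Slc39a10 have 0.

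Metallothionein mRNA was far more abundant at day 3. Mt1 had a signal of 649 at day 0 and 14765 at day 3 on its brightest probe set (1422557_s_at), a 22.7-fold difference and a log2 ratio of 4.51. Mt2 had a signal of 372 at day 0 and 9557 at day 3 (1428942_at), a 25.7-fold difference and a log2 ratio of 4.68. A second Mt1 probe set (1451612_at) went from 47.5, under the floor of 68.3, to 1240, at least 18.2-fold higher. All 3 probe sets of Mt1 and Mt2 were therefore higher at day 3, by at least 18.2-fold. The suffix of the brightest Mt1 probe set marks probes that can match other transcripts. Mt1 and Mt2 mRNAs are much alike, so the share of each gene in these signals is uncertain.

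In the order of log2 ratios from the highest down, Mt2 stood 25th and Mt1 32nd of 12634 genes. At least 2-fold higher signal at day 3 was seen for 12.9% of all genes and at least 2-fold lower signal for 5.62%. Higher genes made up 69.6% of all genes past 2-fold, 58.4% after quantile normalisation and 86.3% after scaling to the hybridisation spikes. Of the 10 genes, 3 were at least 2-fold higher (Mt1, Mt2 and Slc39a10), 0 were at least 2-fold lower and 7 were under 2-fold. The median log2 ratio of the 10 was 0.28, against 0.08 over all genes. The count was 2 after quantile normalisation, after loess and with a 75th percentile floor, and 4 with the mean over probe sets. Of the 22 probe sets, 19 were above the floor on at least 1 array, and 5 of these were at least 2-fold higher and 0 at least 2-fold lower. Over all such probe sets on the array with 1 symbol the shares were 11.2% higher and 6.07% lower.

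**Figure D2:**
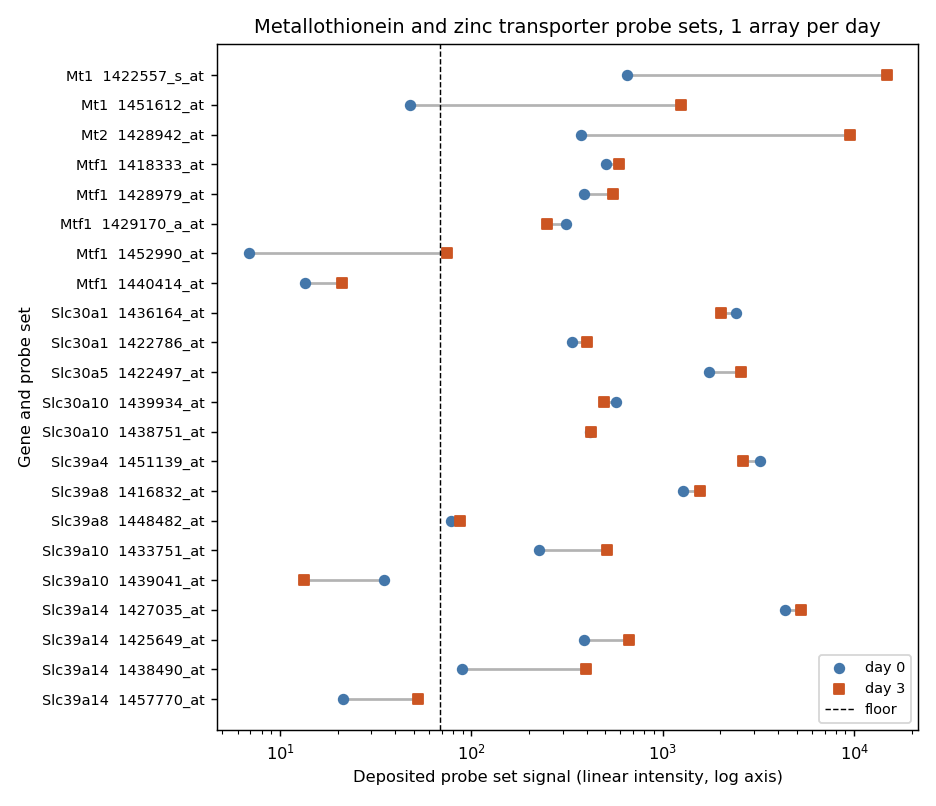
Deposited signal of each of the 22 probe sets (log axis, linear intensity) at day 0 (circles) and day 3 (squares), 1 array per day, with the floor of 68.3 as a dashed line. The Mt1 and Mt2 probe sets are separated by more than an order of magnitude between the days, while most transporter probe sets have both points close together.

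The genes nearest to Mt2 and Mt1 in log2 ratio, over 2 arrays and among genes above the floor on both, were found by a fixed rule, 3 on either side. Next to Mt2 stood Incenp, a subunit of the chromosomal passenger complex (distance 0.0064 in log2 ratio, 25.8-fold higher), Uhrf1, which maintains DNA methylation (0.061), and Cdk1, the mitotic kinase (0.072). Prc1, a spindle midzone protein, Slpi, an antiprotease, and Top2a, a topoisomerase, were the other three. Next to Mt1 stood Cdca3, a cell division gene (0.014, 22.5-fold higher), Aurka, a spindle kinase (0.019), Cox6b2, a cytochrome oxidase subunit (0.053), Arhgap11a (0.068), Slpi (0.068) and Prc1 (0.082). Likeness here means only that the ratio of 2 values was near.

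**Figure D3:**
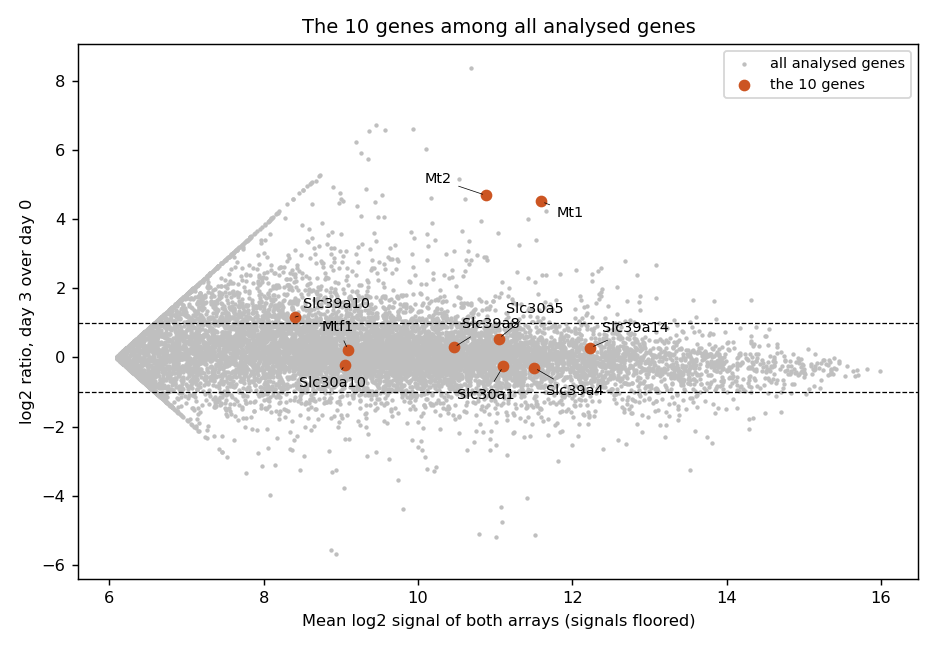
log2 ratio of day 3 over day 0 (y axis) against the mean log2 signal of both arrays (x axis) for 12634 genes in grey and the 10 genes in orange, with dashed lines at 2-fold. Mt1 and Mt2 lie above 4.5, Slc39a10 lies at 1.16, and the other seven lie between −0.30 and 0.54.

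Mtf1, the factor that reads zinc and drives metallothionein transcription, differed little. Its brightest probe set had signals of 508 and 589 at day 0 and day 3, a 1.16-fold difference. Of its 5 probe sets, 3 were above the floor on both days, with log2 ratios of 0.21, 0.50 and −0.33. Another went from 6.87 to 74.9, just over the floor at day 3, and the last stayed under it at 13.5 and 20.9. Its probe sets therefore did not share a direction. Other genes known to be under MTF1 control were taken from a list of 7 entries, of which 5 were analysed. Their median log2 ratio was −0.16, with 1 past 2-fold upwards, 0 downwards and 4 in between. The shares over all genes were 12.9% upwards and 5.62% downwards. Csrp1, a LIM-domain protein, was 6.69-fold higher (200 at day 0, 1341 at day 3), with its other probe set at a log2 ratio of 1.54. Selenow, a selenoprotein, and Gclc, the catalytic subunit of glutathione synthesis, were 1.21-fold and 1.15-fold lower. Pgf was under the floor on both arrays.

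The exporters in the list stayed under 2-fold. Slc30a1, the plasma membrane zinc exporter and itself an MTF1 target, had signals of 2409 at day 0 and 2010 at day 3 on its brightest probe set (log2 ratio −0.26). Its other probe set had 335 and 400 (log2 ratio 0.26). The probe sets of Slc30a1 thus differed in sign, and with scaling to the hybridisation spikes the brightest one had a ratio of 0.03. Slc30a5, which loads zinc into the secretory pathway together with Slc30a6, had signals of 1751 and 2554, a 1.46-fold difference and the highest ratio of the listed exporters. Slc30a6 itself had signals of 1200 and 1302. Slc30a10, which exports manganese, had 572 and 495 on one probe set and 418.7 and 418.9 on the other. The ratio of its brightest probe set was −0.21, and 0.08 with spike scaling.

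Among the 4 importers of the list, Slc39a10 was the one past 2-fold on its brightest probe set. Slc39a10, a plasma membrane importer that pairs with Slc39a6, had a signal of 227 at day 0 and 508 at day 3, a 2.24-fold difference and the 1250th highest ratio of 12634. Its log2 ratio was 0.92 after quantile normalisation and 0.98 after loess, both under 2-fold, and 0.37 with a 75th percentile floor. A second probe set of Slc39a10 had signals of 35.1 and 13.3, under the floor on both days. Slc39a14, the hepatocyte importer of zinc, iron and manganese and a known target of interleukin 6, had signals of 4369 and 5296 on its brightest probe set, a 1.21-fold difference. Its other probe sets gave larger differences. One went from 386 to 667 (1.73-fold), another (1438490_at) from 89.6 to 395 (4.41-fold), and the last was under the floor at 21.2 and 52.5. All 4 Slc39a14 probe sets were higher at day 3 as deposited, and the log2 ratios of the 3 above the floor ran from 0.28 to 2.14. The mean over these probe sets was 1.07.

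Slc39a8, an importer of zinc and manganese, had signals of 1278 and 1562 on its brightest probe set (1.22-fold) and of 78.3 and 86.9 on the other, which lay just over the floor. Slc39a4, the importer that takes up dietary zinc in the intestine, had signals of 3232 and 2621 (log2 ratio −0.30, and −0.01 with spike scaling). Over all genes, spike scaling raised the median log2 ratio from 0.08 to 0.36. The ratios of the brightest probe sets of Mtf1, Slc30a1, Slc30a10, Slc39a4, Slc39a8 and Slc39a14 were smaller in size than 0.435, the SD of the log2 ratio between probe sets of 1 gene (n = 4380 genes). That SD covers disagreement between probe sets on these arrays and not differences between animals.

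In both transporter families together, 22 of 24 genes were above the floor on at least 1 array. Their median log2 ratio was 0.30, with 3 at least 2-fold higher, 1 at least 2-fold lower and 18 in between. Over all genes 12.9% were at least 2-fold higher and 5.62% at least 2-fold lower, and nothing is read from the counts over so few transporters. Of 203 other solute carrier genes, 11.8% were at least 2-fold higher and 10.3% at least 2-fold lower, with a median of −0.08. Slc39a6, the partner of Slc39a10, had the highest ratio of the transporters, with a signal of 137 at day 0 and 568 at day 3 (4.15-fold). Its other probe sets were under the floor on both days. Slc30a3, the zinc transporter of synaptic vesicles, had signals of 199 and 546 (2.74-fold). Slc39a2 was the transporter that was 2-fold lower, at 365 and 153 (2.39-fold lower), and its log2 ratio was −0.96 with spike scaling. Slc39a6 and Slc30a3 stayed at least 2-fold higher in 9 of 10 alternative settings each, the exception being the 75th percentile floor (0.53 and 0.47).

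Of the other Slc39 genes, Slc39a13, a Golgi zinc carrier, had signals of 227 and 417 (1.84-fold, or a log2 ratio of 1.17 with spike scaling), and Slc39a7, which releases zinc from the endoplasmic reticulum, 2213 and 3355 (1.52-fold). Slc39a5 had 93.3 and 138 (1.48-fold), Slc39a11 1316 and 1686 (1.28-fold), Slc39a1 2196 and 2708 (1.23-fold) and Slc39a9 1310 and 1359 (1.04-fold). Slc39a3 had 413 and 374 (log2 ratio −0.14, and 0.15 with spike scaling). In the main setting these genes were all under 2-fold. Of the other Slc30 genes, Slc30a9 had 2373 and 3288 (1.39-fold) and Slc30a4 849 and 1113 (1.31-fold). Slc30a7 had 1694 and 1476 on one probe set and 388 and 600 on another, in opposite directions. Slc30a8, the zinc transporter of insulin granules, was at 77.2 and 33.8, near and under the floor, and had a log2 ratio of −1.19 with a 25th percentile floor. Slc30a2, Slc39a12, Mt3 and Mt4 were under the floor on both arrays.

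**Figure D4:**
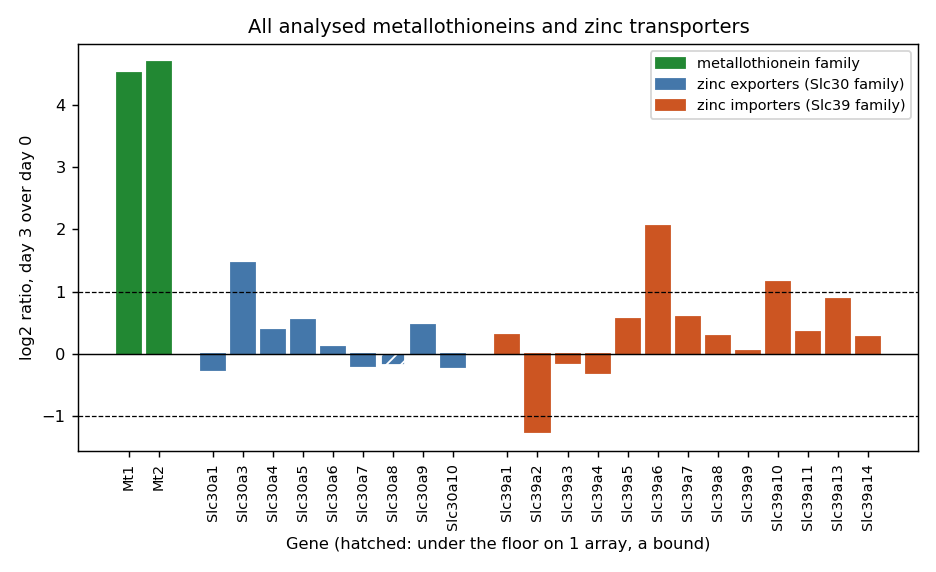
log2 ratio of day 3 over day 0 for each analysed metallothionein, Slc30 and Slc39 gene, 1 array per day and no error bars, with dashed lines at 2-fold. Mt1 and Mt2 stand above 4, Slc39a6 at 2.05, Slc30a3 at 1.46 and Slc39a10 at 1.16, and Slc39a2 stands at −1.25.

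The lists for the other known inducers of metallothioneins hold genes of their signalling as well as genes that answer to them. Each list had genes past 2-fold in both directions. Over all genes, 12.9% were at least 2-fold higher and 5.62% at least 2-fold lower. Among 9 glucocorticoid-related genes the median log2 ratio was −0.34, with 1 gene at least 2-fold higher, 2 lower and 6 in between. Sgk1, a kinase, was 2.30-fold higher (859 at day 0, 1972 at day 3). Klf9, a transcription factor, was 3.19-fold lower (13728 and 4307) and 6 of its 7 probe sets were at least 2-fold lower. Hsd11b1, which regenerates active glucocorticoid, was 2.76-fold lower (29950 and 10835). Among 13 genes of interleukin 6 signalling and response the median was 0.09, with 4 at least 2-fold higher, 1 lower and 8 in between. The higher ones were Saa1, Saa2, Steap4 and Socs3. Socs3, the feedback inhibitor of this pathway, went from 471 to 1070 and was at least 2-fold higher on all 3 of its probe sets. Il6ra, the receptor, was the lower one (869 and 267), and the fibrinogen genes Fga, Fgb and Fgg differed by at most 1.08-fold.

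Markers of other cell types and the balance of 3' to 5' signal on control probe sets differed between the arrays as well. Of the Kupffer cell markers, 4 of 6 were at least 2-fold higher, beside 12.9% of all genes higher and 5.62% lower. Their summed signal was 5267 at day 0 and 15879 at day 3. For cholangiocytes 3 of 4 were higher (275 and 1042), for stellate cells 2 of 5 (9189 and 17936) and for neutrophils 2 of 3 (259 and 1246). Of these markers, Krt7, Epcam, Des, Col1a1 and S100a8 were under the floor at day 0, so their ratios are bounds. The sums include such signals as deposited. Sinusoidal endothelium had 0 of 6 past 2-fold (7437 and 5626), and the 5 hepatocyte markers had 0 of 5 (262089 and 206899). Markers of B cells (204 and 127, 2 genes), erythroid cells (Alas2, 8932 and 2783) and pancreatic acinar cells (Cela2a, 161 and 20.1) were lower in sum, and the enterocyte markers (8640 and 10460, 2 genes) had 0 of 2 past 2-fold. The B cell gene Ms4a1 (57.8) and Cela2a were under the floor at day 3, and the enterocyte gene Vil1 (5.69) at day 0. Their ratios are bounds, with Cela2a at least 2.36-fold lower. The B cell gene Cd79b (69.2) was just over the floor at day 3. The neutrophil gene Mpo, the B cell gene Cd79a, the erythroid gene Hba-a1, the acinar gene Cpa1 and the enterocyte gene Lct were under the floor on both arrays. The hepatocyte genes Alb, Apoa1, Apob, Ttr and Ahsg were high on both days, as the liver label implies. Their part in the metallothionein and transporter differences was not tested, and in whole tissue more cells of a type and more RNA per cell cannot be told apart. Poly-A control RNAs, added before labelling, had a median log2 ratio of −1.20 on their 5' probe sets and −0.12 on their 3' ones, and the 3' to 5' signal ratio of Gapdh was 1.41 at day 0 and 2.69 at day 3. Where the probe sets of Slc39a14, Slc30a1 and Mtf1 lie along their mRNAs was not analysed. The part of RNA quality or labelling in their disagreement was not tested.

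**Figure D5:**
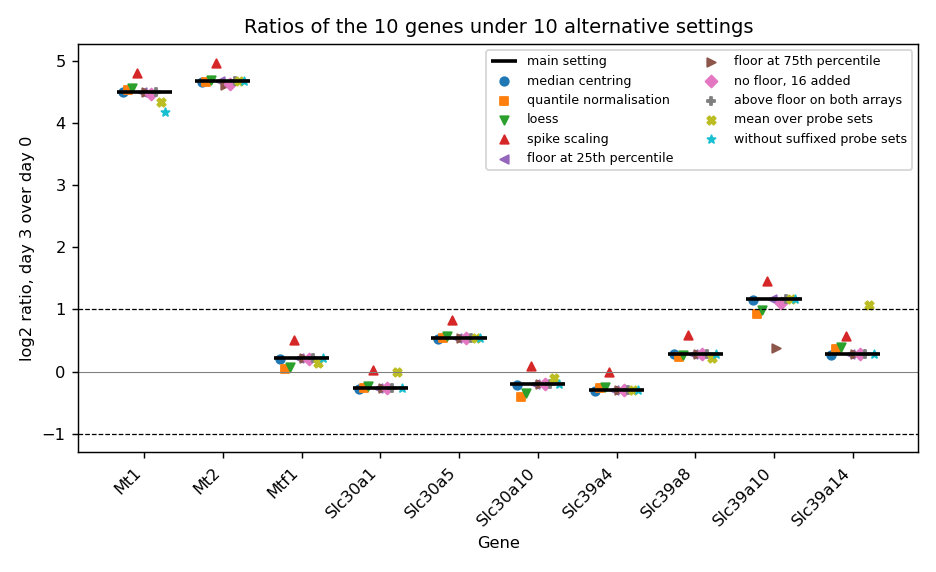
log2 ratio of day 3 over day 0 for the 10 genes in the main setting (bars) and in 10 alternative settings (symbols), with dashed lines at 2-fold. Mt1 runs from 4.18 to 4.80 and Mt2 from 4.60 to 4.97, Slc39a10 runs from 0.37 to 1.46 across the 2-fold line, and Slc39a14 reaches 1.07 with the mean over probe sets.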

How the data were processed

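Total RNA from whole liver was labelled with biotin and hybridised to Affymetrix mouse arrays of 45101 probe sets. The deposited values are linear intensities per probe set, made with GCOS and MAS5 per the submitters' processing notes. Not given in the sources used here are their versions, the scaling target and a genome build. The trimmed mean signal (2% off each end) was 500.004 on both arrays. MAS5 subtracts mismatch signal, which makes low values noisy, and the number of arrays limits the precision.

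Signals were used as deposited. The floor was the higher of the 2 array medians without control probe sets (68.3). Lower signals were raised to it before log2 was taken, and genes below it on both arrays were dropped, so a fold from a floored signal is a lower bound. Of the 34945 probe sets with 1 symbol, the one with the highest mean log2 signal stood for a gene. The threshold was 2-fold. Named were the 10 genes, all genes of both families, up to 3 genes with the largest ratio of each other list, and the 3 genes on either side of Mt1 and Mt2 in the order of ratios. A few more list genes were named after their values were seen. The members and lists were chosen with earlier results of these data known. Promoters came from RefSeq (GRCm38.p6). Scripts ran in Python 3.11.15 and were tested on simulated data.

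Tried in place of these choices were, for scaling, the hybridisation spikes, median centring, quantile normalisation or loess (fraction 0.3), for the floor, the 25th or 75th percentile, none with 16 added, or only genes above it on both arrays, for probe sets, their mean or those without a letter suffix, and thresholds of 1.5-fold and 4-fold.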

Additional observations from a re-analysis of the deposited data

How the results depend on the processing

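Of 100 ratios of the 10 genes under 10 alternative settings, 98 moved by less than the SD between probe sets, and 0 of those past 2-fold changed sign. The exceptions were Slc39a10 with a 75th percentile floor (0.37), which lies above its day 0 signal, and Slc39a14 with the mean over probe sets (1.07). Slc30a1 and Slc30a10, both under 2-fold, changed sign with spike scaling (0.03 and 0.08). The median log2 ratio of the spikes (−0.29) was smaller in size than the SD between probe sets, so this scaling could move few ratios past it. A 25th percentile floor and the restriction to genes above the floor on both arrays could not move the 10 ratios. Their brightest probe sets were above the floor on both days. Median centring moved all of them by the same small amount, and leaving out suffixed probe sets changed only Mt1. The count of 98 is therefore no measure of how firm the ratios are. The median of the 10 genes ran from 0.27 with median centring to 0.57 with spike scaling. The number of the 10 genes past the threshold was 2 to 4 higher and 0 lower in the 10 settings and at thresholds of 1.5-fold and 4-fold. At 1.5-fold 3 of the 10 were higher, beside 3028 of 12634 genes, and at 4-fold 2 of the 10, beside 413 of 12634. Of the transporters of both families 4 passed 2-fold, against 0 with a 75th percentile floor, 3 after quantile normalisation or loess and 5 with a 25th percentile floor (Slc30a8 at −1.19) or the mean over probe sets. At 1.5-fold 6 passed and at 4-fold 1.

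Counts over all genes depended more on the settings. Lower genes (710 of 12634) numbered 380 of 12258 after spike scaling and 1868 of 16484 with a 25th percentile floor. They numbered 417 of 7910 with a 75th percentile floor and 1770 of 18193 without a floor. At 1.5-fold 1797 of 12634 were lower and at 4-fold 96. Higher genes (1625 of 12634) numbered 617 of 7910 with a 75th percentile floor, 3028 of 12634 at 1.5-fold and 413 at 4-fold. The number of genes analysed changed with the floor, so a change in these counts is not a change in share. The floor and threshold change how many genes can pass. Spike scaling multiplied every day 3 signal by the same factor, which raised the log2 ratios, so fewer genes could be lower. Why the spikes themselves differed between the arrays was not tested. Low signals limit Mt1, Mtf1, Slc39a8, Slc39a10 and Slc39a14, each with at least 1 probe set near or under the floor on an array.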

Other observations

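The 4 metallothionein genes lie in a row on mouse chromosome 8 in the RefSeq order of protein-coding genes, as Bbs2, Mt4, Mt3, Mt2, Mt1 and Nup93. These neighbours were chosen by position and after the values of Mt1 and Mt2 were known. Within this row Mt1 and Mt2 were 22.7-fold and 25.7-fold higher at day 3, whereas Mt3 had signals of 53.4 and 18.6 and Mt4 of 7.63 and 15.5, both under the floor on both days. Bbs2, a cilium gene, was also under the floor. Nup93, a nuclear pore gene on the Mt1 side, went from 203 to 975 (4.79-fold higher), and Ogfod1, beyond Bbs2, had signals of 437 and 446 (1.02-fold).

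Copper is also bound by metallothioneins. Of 10 copper handling genes, 0 were at least 2-fold higher or lower (median log2 ratio 0.21), beside 12.9% of all genes higher and 5.62% lower, and nothing is read from this count over so few genes. For Cp, the copper-carrying plasma protein ceruloplasmin, 2 of 8 probe sets were at least 2-fold higher (log2 ratios from −0.14 to 1.73), and for Atp7b, the copper ATPase of hepatocytes, 1 of 3 was at least 2-fold lower (−1.14 to 0.20). Atp7a, a copper-exporting ATPase that adult liver uses little, had signals of 298 and 524 (1.76-fold). Sod1, the copper and zinc superoxide dismutase, had 40032 and 27027 (1.48-fold lower, while the log2 ratios of its probe sets ran from −0.57 to 0.60), and Slc31a1, the copper importer, 3805 and 2597 (1.46-fold lower). Of 4 further manganese transport genes 1 was at least 2-fold higher, Tmem165, a Golgi protein (766 and 1795, 2.34-fold). Atp2c1, a Golgi pump, was 1.24-fold lower and the metal exporter gene Slc40a1 1.12-fold lower.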
